A study of Mus musculus with 12 samples.

Results

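The interferon-stimulated genes are a list of 39 genes, and they were followed across 12 mouse microarrays from PUER cells. Probes of 35 of them carried the listed symbol as their gene name, 56 probes among the 41174 non-control probes of the array. The other 4 (Gbp3, Herc6, Dhx58 and Cmpk2) were reached through transcript accessions or older symbols, with 8 probes, and are given apart. Of the 35 genes, 27 were bright enough to be tested among 15076 genes, and 23 of these were well above background on all 12 arrays.

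PUER cells are myeloid cells without their own PU.1, a transcription factor of blood development. They carry PU.1 fused to the estrogen receptor, grow in interleukin 3 and mature when 4-hydroxytamoxifen (4-OHT) activates the fusion. Every culture also carried a retroviral vector and was sorted on its GFP marker. There were 3 arrays in each of 4 groups: Hnrnpa0 shRNA cells after 24 h in 2 nM 4-OHT, Hnrnpa0 shRNA cells before 4-OHT, control-vector cells after 24 h in 2 nM 4-OHT, and control-vector cells before 4-OHT. The series describes separate clones for each vector, and a single shRNA was used; p-values measure the spread between these arrays. Vehicle appears in the treatment protocol and in no sample's label, so 4-OHT cannot be told apart from 24 h of further culture. With bulk RNA, fewer cells of a type and less RNA per cell cannot be told apart. Levels are log2 intensities relative to the 75th percentile of the array, so a value of 0 equals that percentile, and a level is read within a gene and not between genes. Every change or difference given with an SE is on the log2 scale.

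Type I interferons bind Ifnar1 and Ifnar2, type II interferon binds Ifngr1 and Ifngr2, and the receptors' kinases (Jak1, Tyk2, Jak2) phosphorylate signal carriers such as Stat2. A complex that holds Stat2 and Irf9 then binds interferon-stimulated response elements (ISRE), type II interferon acts through gamma-activated sites (GAS), and the genes beside these elements encode antiviral enzymes, sensors, antigen-processing proteins and brakes on the pathway. In myeloid cells PU.1 also binds DNA together with Irf8 or Irf4 at composite elements, and many of these genes are transcribed at a basal level without added interferon.

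The shRNA target was measured in every group. Hnrnpa0, an RNA-binding protein, averaged 0.55 ± 0.09 in shRNA cells after 4-OHT and 1.502 ± 0.47 before it, against 2.65 ± 0.07 in control cells after 4-OHT and 3.05 ± 0.07 before it (log2, SD, n = 3 each). The shRNA minus control difference was -2.10 (SE 0.18, adjusted p = 0.00511) after 4-OHT and -1.54 (SE 0.18, adjusted p = 0.0127) before it. The 75th percentile lay between 1196 and 2583 intensity units, and 50.3% to 55.7% of each array's spots passed the scanner's test for being well above background. The arrays lay on 3 slides, and no slide held both vectors within a treatment, so vector and slide can be separated only through a model.

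With 4-OHT the interferon-stimulated genes moved in both directions. In shRNA cells 14 of the 27 genes tested rose, 7 fell and 6 did not pass the test. In control cells 13 rose, 6 fell and 8 did not pass (limma, adjusted p below 0.05 over all 15076 genes). The same threshold was passed by 38.3% of all genes in shRNA cells, with 16.5% higher and 21.8% lower, and by 40.5% in control cells, with 17.5% higher and 23% lower. The median log2 change of the 27 genes was 0.30 in shRNA cells and 0.24 in control cells, against -0.08 in shRNA cells and -0.07 in control cells over all genes tested. The filter on dim probes admits genes that are bright in 1 condition only, and the p-value of such a gene is no separate support for its change. Among the 23 genes above background on all 12 arrays, 12 rose and 6 fell in shRNA cells, and 11 rose and 6 fell in control cells. The share over all genes of that brightness was not computed, so these counts have no comparator. The falls in each of these counts include Sp100, counted by its brightest probe, although its probes disagree.

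The 2 vectors' 4-OHT comparisons have no array in common. Of the 21 genes called in shRNA cells 19 (90.5%) were called in the same direction in control cells, where they were all of those called. Over all genes, 4840 were called in the same direction in both, which is 83.8% of the calls in shRNA cells and 79.3% of those in control cells. Parp9, a macrodomain partner of the ubiquitin ligase Dtx3l, and Zbp1 passed in shRNA cells and not in control cells, and the test of the difference in response between the vectors passed for neither. The values after and before did not overlap for 22 of the 27 genes in shRNA cells, where 51.5% of all genes did not overlap, and for 20 of 27 in control cells, where 50.9% did not.

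**Figure D1:**
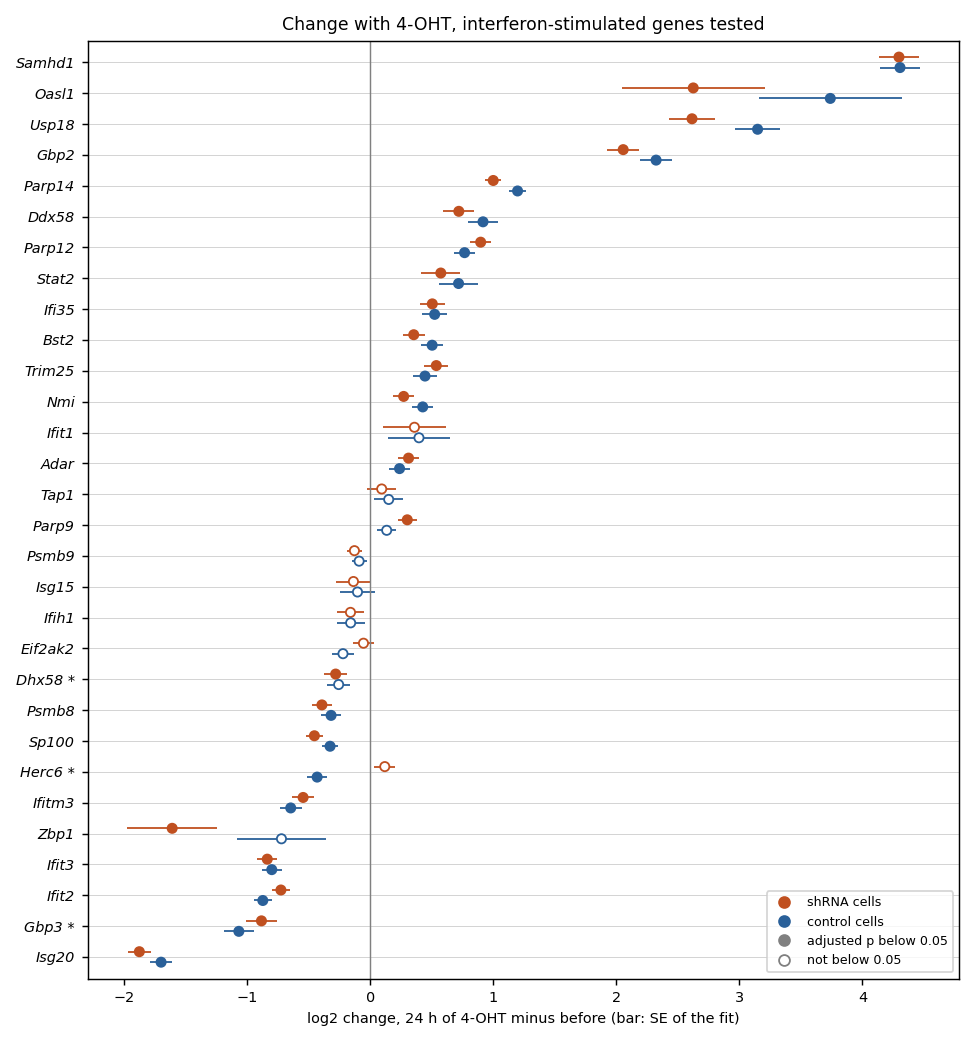
Log2 change with 4-OHT (horizontal axis, 24 h minus before) of the 30 listed genes tested, in shRNA cells (orange) and control cells (blue), with the SE of the fit as bars. Filled points passed an adjusted p of 0.05, and an asterisk marks genes named through the reference tables. Samhd1 stands highest at 4.30 in shRNA cells and 4.31 in control cells, and Isg20 lowest at -1.88 in shRNA cells and -1.70 in control cells.

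The promoters of the members were searched for the sequence elements named above, since these are the sites through which interferon and PU.1 are known to act. RefSeq promoters (build GRCm38.p6, 250 bases before to 50 after an annotated start) were given for 31 of the 39 genes. The ISRE core, GAAA, any 2 bases and GAAA, was present in 14 of these 31 (45.2%), against 3.99% of 27025 genes with a promoter. The GAS element, TTC, any 3 bases and GAA, was present in 10 (32.3%), against 9.55% of all genes, and the PU.1 and Irf composite, GGAA, any 2 bases and GAAA, in 5 (16.1%), against 3.16%. Both strands were searched, and the ISRE and composite patterns can overlap each other. Of the 14 genes with an ISRE core 11 were tested, and 4 rose and 3 fell in control cells. Of the 17 without one 14 were tested, and 7 rose and 5 fell. These counts use the brightest probe and include table-named genes, with Gbp3 among the falls with a core and Herc6 among those without. The falls without a core also include Sp100, and the probes of Sp100 and of Herc6 disagree in direction. Genes that rose and genes that fell thus both held the element, and a match is a description of letters, not of a bound site.

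The 6 windows shown are parts of promoters of genes found by the listed symbol that passed with 4-OHT in both vectors. They belong to the 6 such genes with the largest mean absolute log2 change over both vectors whose promoter was given and held an element. Oasl1 and Parp12 held none, and Usp18 and Parp14 had no entry. Each is read 5′ to 3′ on the gene's strand, with the matches in capitals. Samhd1 (chr2:157135293-157135346, minus strand), Isg20 (chr7:78913321-78913389, plus strand) and Ifit2 (chr19:34550444-34550491, plus strand) hold a GAS element. Isg20 and Ifit2 also have other annotated starts, whose promoters held none of the elements. Gbp2 (chr3:142620574-142620643, plus strand) and Ddx58 (chr4:40239784-40239853, minus strand) hold 1 ISRE core each, and Ifit3 (chr19:34583343-34583446, plus strand) holds 2.
Samhd1: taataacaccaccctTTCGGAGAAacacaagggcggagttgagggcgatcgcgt
Gbp2: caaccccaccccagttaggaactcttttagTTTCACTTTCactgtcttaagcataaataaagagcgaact
Ddx58: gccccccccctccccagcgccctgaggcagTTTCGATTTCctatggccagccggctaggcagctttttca
Isg20: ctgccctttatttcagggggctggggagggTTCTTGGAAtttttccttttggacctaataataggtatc
Ifit2: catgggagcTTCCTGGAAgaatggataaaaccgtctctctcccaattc
Ifit3: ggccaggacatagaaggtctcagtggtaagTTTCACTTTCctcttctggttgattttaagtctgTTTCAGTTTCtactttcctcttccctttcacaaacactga
Samhd1, Gbp2 and Ddx58 rose with 4-OHT, and Isg20, Ifit2 and Ifit3 fell.

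**Figure D2:**
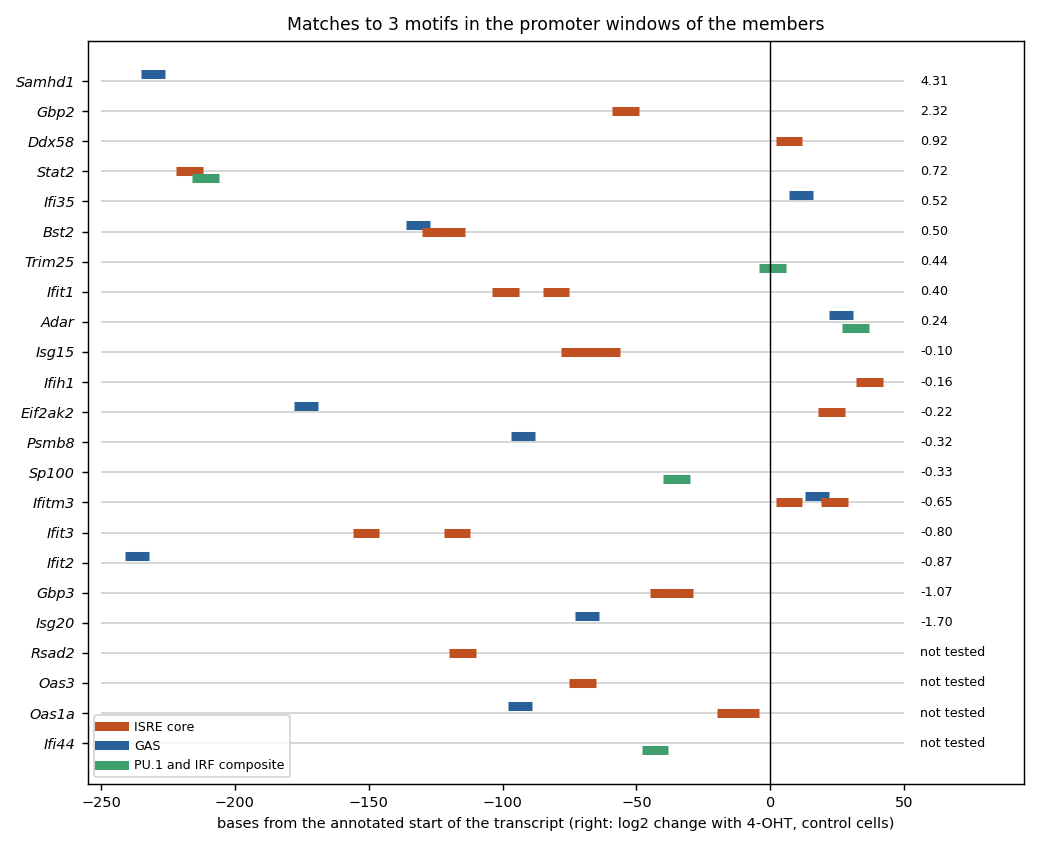
Matches to the ISRE core (orange), GAS (blue) and PU.1 and Irf composite (green) in the promoter windows of the 23 listed genes that held any, by distance in bases from the annotated start (vertical line). Numbers at the right are log2 changes with 4-OHT in control cells, ordered from the highest, with the 4 genes not tested last. Both ends of the order hold matches, Samhd1 (4.31) and Isg20 (-1.70) each a GAS element.

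Among the enzymes of nucleotide and RNA metabolism 1 rose and 1 fell. Samhd1, which hydrolyses deoxynucleotides and restricts retroviruses in myeloid cells, read 3.91, 3.82 and 3.88 in shRNA cells after 4-OHT and -0.55, -0.55 and -0.18 before it, and 3.33, 3.93 and 3.96 in control cells after 4-OHT and -0.50, -0.56 and -0.63 before it (replicates A, B and C in this order throughout). All 6 arrays after 4-OHT stood above all 6 before it. The rise was 19.7-fold in shRNA cells, a log2 change of 4.30 (SE 0.16, adjusted p = 1.51e-08), and 19.8-fold in control cells, a log2 change of 4.31 (SE 0.16, adjusted p = 1.17e-08). A second Samhd1 probe was well above background on all 6 arrays after 4-OHT and on none before it, which gives a rise of at least 20.7-fold in shRNA cells and at least 20.8-fold in control cells. Such a bound sets the bright group against the dimmest signal that counts as well above background, taken array by array. Both probes are shown because they carry the largest rise of the list, the first on chr2:156845798-156847151, across a gap in the genome, and the second on chr2:156840483-156840542 (design coordinates, build mm7).
Samhd1 first probe: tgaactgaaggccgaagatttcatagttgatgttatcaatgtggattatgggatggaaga
Samhd1 second probe: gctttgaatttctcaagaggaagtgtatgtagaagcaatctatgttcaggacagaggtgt

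Isg20, a 3′ to 5′ exoribonuclease, read -1.55, -1.57 and -1.47 in shRNA cells after 4-OHT and 0.48, 0.30 and 0.27 before it, and -1.12, -1.29 and -1.41 in control cells after 4-OHT and 0.42, 0.52 and 0.34 before it. It was lower on every array after 4-OHT than on any before. The log2 change was -1.88 (SE 0.09, adjusted p = 9.05e-08) in shRNA cells and -1.70 (SE 0.09, adjusted p = 1.47e-07) in control cells. Its second probe moved by -1.76 in shRNA cells and -1.51 in control cells. Rsad2, a radical SAM enzyme that makes an antiviral nucleotide, and Cmpk2, a mitochondrial nucleotide kinase, were not tested. Rsad2 had 3 probes, of which 2 were well above background on 1 array each, and Cmpk2 had 2 probes, well above background on no array.

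Of the ISG15 system, in which Isg15 is a ubiquitin-like modifier, Usp18 changed most. Usp18 removes Isg15 from proteins and restrains signalling at Ifnar2. It read -1.56, -1.61 and -1.68 in shRNA cells after 4-OHT and -4.25, -4.18 and -4.27 before it, and -1.13, -1.37 and -1.53 in control cells after 4-OHT and -4.52, -4.03 and -4.93 before it. The values did not overlap, and only 1 of the 3 control arrays before 4-OHT was well above background. The rise was 6.13-fold in shRNA cells, a log2 change of 2.62 (SE 0.19, adjusted p = 1.52e-06), and 8.86-fold in control cells, a log2 change of 3.15 (SE 0.19, adjusted p = 3.08e-07). With normexp background correction the Usp18 log2 change was 1.67 in shRNA cells and 2.05 in control cells, and it passed in both.

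Isg15 itself read -3.81, -3.62 and -3.83 in shRNA cells after 4-OHT and -3.65, -3.45 and -3.74 before it, and -3.93, -3.95 and -3.81 in control cells after 4-OHT and -4.15, -3.68 and -3.56 before it. Its values overlapped in both vectors, and the log2 changes of -0.14 (SE 0.14, adjusted p = 0.475) in shRNA cells and -0.10 (SE 0.14, adjusted p = 0.604) in control cells did not pass. The probe's design coordinate lies on chromosome 17 of mm7, whereas RefSeq places the gene on chromosome 4, so this value is uncertain as a measure of Isg15. Herc6, the main ligase of Isg15 in mice, was named through the tables. Its brightest probe stood at 0.12 (SE 0.08, adjusted p = 0.291) in shRNA cells and fell in control cells, at -0.43 (SE 0.08, adjusted p = 0.00193), but a second probe well above background on all arrays stood at -0.22 in shRNA cells and 0.16 in control cells, opposite in sign to the first in both.

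**Figure D3:**
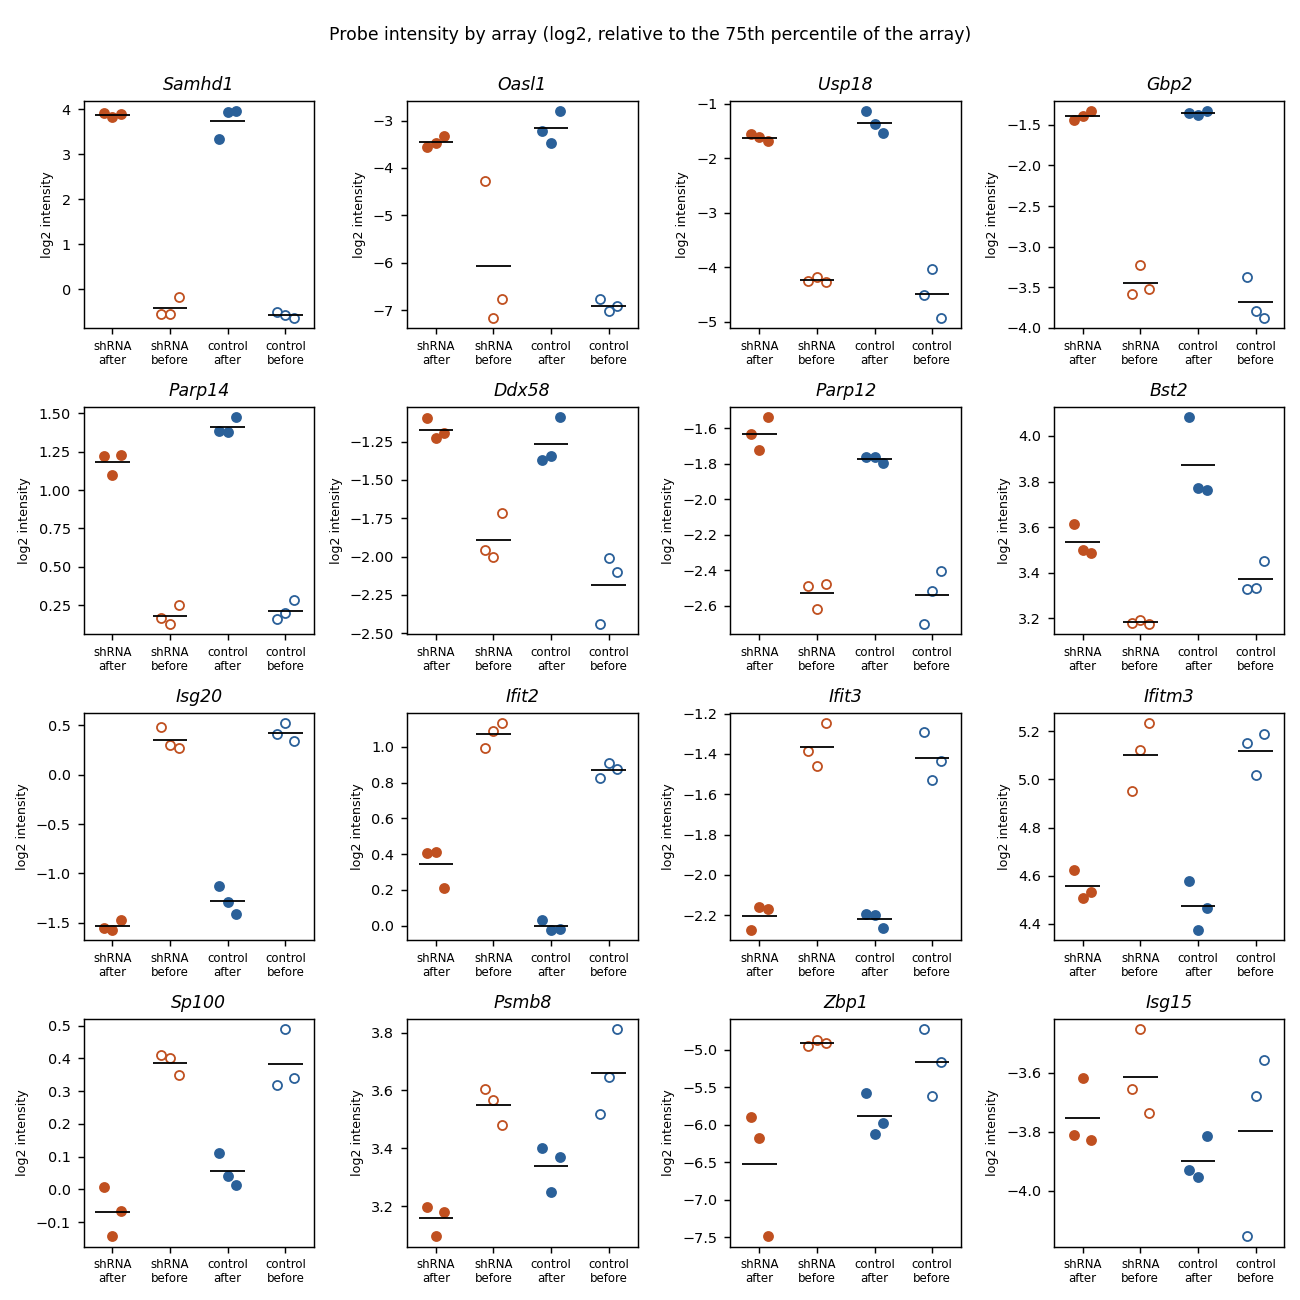
Log2 intensity relative to the 75th percentile of the array (vertical axis, scaled per gene) of 16 interferon-stimulated genes on each array, with shRNA cells in orange, control cells in blue, filled points after 4-OHT and open points before it; horizontal lines are group means of 3 arrays. The 4 upper genes, Samhd1, Oasl1, Usp18 and Gbp2, are higher on every array after 4-OHT than on any before it in the same vector, and Isg15 overlaps.

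The OAS family, whose founding members make 2′-5′ oligoadenylates that activate RNase L, was mostly under detection. No probe of Oas1a, Oas2, Oas3 or Oasl2 was well above background on any array. Oasl1, which in mice represses translation of Irf7, read -3.55, -3.47 and -3.32 in shRNA cells after 4-OHT and -4.28, -7.16 and -6.77 before it, and -3.21, -3.47 and -2.80 in control cells after 4-OHT and -6.77, -7.01 and -6.92 before it. It was well above background on all 6 arrays after 4-OHT and, before it, only on shRNA replicate A. In control cells the rise was therefore at least 2.83-fold (adjusted p of the fit 0.000446). In shRNA cells the fitted change was 2.63 (SE 0.58, adjusted p = 0.00477), but it is not exact, since 2 of 3 arrays before 4-OHT were not well above background. It was 3.52 without shRNA replicate A before 4-OHT and 0.86 with normexp background correction, and it passed in both. Oasl1 met the dim-probe filter through the arrays after 4-OHT, so its p-values are no separate support for the rise. Mx1 and Mx2, dynamin-like GTPases that block viral nucleoproteins, and Ifi44 were well above background on no array in any group, so they have no direction here.

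Among the guanylate-binding GTPases, which coat the vacuoles of intracellular pathogens, Gbp2 rose. It read -1.44, -1.39 and -1.33 in shRNA cells after 4-OHT and -3.58, -3.23 and -3.53 before it, and -1.36, -1.38 and -1.33 in control cells after 4-OHT and -3.37, -3.79 and -3.87 before it. All 6 arrays after 4-OHT exceeded all 6 before it. The rise was 4.16-fold in shRNA cells, a log2 change of 2.06 (SE 0.13, adjusted p = 6.52e-07), and 5-fold in control cells, a log2 change of 2.32 (SE 0.13, adjusted p = 2.09e-07). Gbp3, named through the tables, fell instead, with changes of -0.89 (SE 0.12, adjusted p = 0.000223) in shRNA cells and -1.07 (SE 0.12, adjusted p = 5.06e-05) in control cells. Probes of this family share sequence between paralogs, so the split between Gbp2 and Gbp3 rests on their specificity, which was not tested.

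Of the 3 ADP-ribosyltransferase genes all rose in shRNA cells and 2 in control cells. Parp14, a macrodomain protein of macrophage signalling, read 1.22, 1.10 and 1.23 in shRNA cells after 4-OHT and 0.17, 0.13 and 0.25 before it, and 1.38, 1.38 and 1.48 in control cells after 4-OHT and 0.16, 0.20 and 0.28 before it. Arrays after and before 4-OHT were fully apart, and the log2 change was 0.999 (SE 0.07, adjusted p = 9.26e-07) in shRNA cells and 1.20 (SE 0.07, adjusted p = 1.94e-07) in control cells. Parp12, an antiviral RNA-binding family member, read -1.63, -1.72 and -1.54 in shRNA cells after 4-OHT and -2.49, -2.62 and -2.48 before it, and -1.76, -1.77 and -1.80 in control cells after 4-OHT and -2.70, -2.52 and -2.40 before it. It too did not overlap, with changes of 0.90 (SE 0.08, adjusted p = 1.28e-05) in shRNA cells and 0.77 (SE 0.08, adjusted p = 3.68e-05) in control cells. Parp9 changed by 0.30 (SE 0.08, adjusted p = 0.012) in shRNA cells and by 0.13 (SE 0.08, adjusted p = 0.214) in control cells.

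The IFIT genes, whose proteins bind foreign RNA ends and curb translation, fell where they changed. Ifit2 read 0.41, 0.41 and 0.21 in shRNA cells after 4-OHT and 0.99, 1.09 and 1.13 before it, and 0.03, -0.02 and -0.02 in control cells after 4-OHT and 0.82, 0.91 and 0.88 before it. Ifit3 read -2.27, -2.16 and -2.17 in shRNA cells after 4-OHT and -1.38, -1.46 and -1.25 before it, and -2.20, -2.20 and -2.26 in control cells after 4-OHT and -1.29, -1.53 and -1.43 before it. Both were lower on every array after 4-OHT than on any before. Ifit2 changed by -0.73 (SE 0.07, adjusted p = 1.68e-05) in shRNA cells and -0.87 (SE 0.07, adjusted p = 3.63e-06) in control cells, and Ifit3 by -0.84 (SE 0.08, adjusted p = 1.36e-05) in shRNA cells and -0.80 (SE 0.08, adjusted p = 1.69e-05) in control cells. The second Ifit2 probe moved by -0.69 in shRNA cells and -0.70 in control cells. Ifit1 was dim, overlapped in both vectors and did not pass, at 0.36 (SE 0.25, adjusted p = 0.285) in shRNA cells and 0.40 (SE 0.25, adjusted p = 0.252) in control cells. Ifit1 and Ifit3 hold 2 ISRE cores each in their promoter windows.

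Of the nucleic acid sensors, Ddx58 (RIG-I), which detects RNA with a 5′ triphosphate, rose. It read -1.10, -1.22 and -1.20 in shRNA cells after 4-OHT and -1.96, -2.001 and -1.71 before it, and -1.37, -1.34 and -1.09 in control cells after 4-OHT and -2.44, -2.01 and -2.10 before it. The groups did not overlap, and the change was 0.72 (SE 0.13, adjusted p = 0.00109) in shRNA cells and 0.92 (SE 0.13, adjusted p = 0.000183) in control cells. The related sensor Ifih1 (MDA5), which detects long double-stranded RNA, did not pass, at -0.16 (SE 0.11, adjusted p = 0.284) in shRNA cells and -0.16 (SE 0.11, adjusted p = 0.305) in control cells. Dhx58 (LGP2), the helicase that regulates both and was named through the tables, was at -0.28 (SE 0.09, adjusted p = 0.0374) in shRNA cells and -0.26 (SE 0.09, adjusted p = 0.0508) in control cells, so it passed in shRNA cells. Zbp1, which senses Z-form nucleic acids and triggers necroptosis, read -5.90, -6.18 and -7.49 in shRNA cells after 4-OHT and -4.95, -4.87 and -4.91 before it, and -5.58, -6.12 and -5.97 in control cells after 4-OHT and -4.73, -5.62 and -5.16 before it. The shRNA values did not overlap and the control values did. It was well above background only on the 3 shRNA arrays before 4-OHT, which makes its fall in shRNA cells at least 1.20-fold (adjusted p of the fit 0.00537). Zbp1 met the dim-probe filter only through that group, so this p-value is no separate support for the fall.

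Stat2, Trim25, Ifi35, Nmi and Adar rose in both vectors, but with slide as a block Stat2 and Adar passed in neither and Nmi did not in shRNA cells. Stat2, the partner of Irf9 in the factor that binds the ISRE, averaged 1.19 ± 0.17 in shRNA cells after 4-OHT and 0.61 ± 0.14 before it, and 0.98 ± 0.20 in control cells after 4-OHT and 0.26 ± 0.30 before it (SD, n = 3 each). Its changes were 0.57 (SE 0.16, adjusted p = 0.0163) in shRNA cells and 0.72 (SE 0.16, adjusted p = 0.00441) in control cells. Trim25, a ubiquitin ligase of the RIG-I pathway, changed by 0.54 (SE 0.10, adjusted p = 0.00142) in shRNA cells and 0.44 (SE 0.10, adjusted p = 0.0041) in control cells. A second Trim25 probe, also above background on all arrays, rose more, by 1.39 in shRNA cells and 1.67 in control cells, so the size of this change depends on the probe. Ifi35, a leucine zipper protein, changed by 0.50 (SE 0.10, adjusted p = 0.00264) in shRNA cells and 0.52 (SE 0.10, adjusted p = 0.00188) in control cells, and its binding partner Nmi by 0.27 (SE 0.08, adjusted p = 0.0273) in shRNA cells and 0.43 (SE 0.08, adjusted p = 0.00217) in control cells. Adar, which edits adenosine to inosine in double-stranded RNA, changed by 0.31 (SE 0.08, adjusted p = 0.0127) in shRNA cells and 0.24 (SE 0.08, adjusted p = 0.041) in control cells. Eif2ak2 (PKR), the RNA-activated kinase that stops translation, did not pass, at -0.06 (SE 0.09, adjusted p = 0.642) in shRNA cells and -0.22 (SE 0.09, adjusted p = 0.0664) in control cells.

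The membrane restriction factors moved in opposite directions. Bst2 (tetherin), which holds budding virions at the cell surface, read 3.61, 3.501 and 3.49 in shRNA cells after 4-OHT and 3.18, 3.19 and 3.18 before it, and 4.08, 3.77 and 3.76 in control cells after 4-OHT and 3.33, 3.33 and 3.45 before it. It rose in both vectors, by 0.35 (SE 0.09, adjusted p = 0.00938) in shRNA cells and 0.50 (SE 0.09, adjusted p = 0.001) in control cells. Ifitm3, which blocks fusion of viruses in endosomes, read 4.62, 4.51 and 4.53 in shRNA cells after 4-OHT and 4.95, 5.12 and 5.23 before it, and 4.58, 4.37 and 4.46 in control cells after 4-OHT and 5.15, 5.02 and 5.19 before it. It was lower on every array after 4-OHT, with changes of -0.55 (SE 0.09, adjusted p = 0.000632) in shRNA cells and -0.65 (SE 0.09, adjusted p = 0.000173) in control cells. Its spot was saturated on 1 of 3 shRNA arrays after 4-OHT and 2 of 3 before it, and on 0 of 3 control arrays after 4-OHT and 1 of 3 before it, so the sizes of these changes are not exact.

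Of the antigen-processing genes, Psmb8, a catalytic subunit of the immunoproteasome, read 3.20, 3.096 and 3.18 in shRNA cells after 4-OHT and 3.60, 3.57 and 3.48 before it, and 3.40, 3.25 and 3.37 in control cells after 4-OHT and 3.52, 3.65 and 3.81 before it. The groups did not overlap, and the changes were -0.39 (SE 0.08, adjusted p = 0.00343) in shRNA cells and -0.32 (SE 0.08, adjusted p = 0.0104) in control cells. Its neighbour Psmb9, another catalytic subunit, did not pass, at -0.13 (SE 0.06, adjusted p = 0.117) in shRNA cells and -0.09 (SE 0.06, adjusted p = 0.268) in control cells. Tap1, a subunit of the transporter that carries peptides to MHC class I, did not pass either, at 0.09 (SE 0.12, adjusted p = 0.556) in shRNA cells and 0.15 (SE 0.12, adjusted p = 0.353) in control cells.

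Sp100, a protein of nuclear bodies, read 0.01, -0.14 and -0.07 in shRNA cells after 4-OHT and 0.41, 0.40 and 0.35 before it, and 0.11, 0.04 and 0.01 in control cells after 4-OHT and 0.32, 0.49 and 0.34 before it. By this brightest probe it fell, with changes of -0.45 (SE 0.07, adjusted p = 0.000353) in shRNA cells and -0.33 (SE 0.07, adjusted p = 0.0028) in control cells. A second probe also moved down, by -0.44 in shRNA cells and -0.43 in control cells, but the dimmest moved up, by 0.44 in shRNA cells and 0.82 in control cells, and all 3 were well above background on all 12 arrays. With the mean of the 3 probes the control value turned to 0.02 (adjusted p = 0.86), so no direction can be given for Sp100 as a gene. The probes are shown because they disagree, in the order of brightness. They lie on chr1:85600471-85602152, chr1:85610293-85610352 and chr1:85560865-85560922 (mm7).
Sp100 brightest probe: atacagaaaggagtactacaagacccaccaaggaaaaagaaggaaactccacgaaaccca
Sp100 second probe: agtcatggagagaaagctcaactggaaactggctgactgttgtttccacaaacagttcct
Sp100 dimmest probe: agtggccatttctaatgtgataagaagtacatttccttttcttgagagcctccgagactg

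Slides were set beside the 4-OHT changes because both times of a vector met on 2 of them: slide 3 had 3 shRNA arrays after 4-OHT and 1 before it, and slide 1 had 1 control array after 4-OHT and 3 before it. Each of these slides had 1 array in an arm, so only the sizes of change are given within a slide. Samhd1 changed by 4.05 within slide 3 and 3.89 within slide 1, Usp18 by 2.65 within slide 3 and 3.36 within slide 1, Gbp2 by 2.14 within slide 3 and 2.32 within slide 1, and Isg20 by -1.80 within slide 3 and -1.55 within slide 1. With slide as a fixed block, 10 genes rose and 6 fell in shRNA cells, and 11 rose and 5 fell in control cells. The share of all genes that passed in that fit was not set beside these counts, so they do not single out the members. In that fit Stat2 (adjusted p = 0.181), Adar (0.0769), Nmi (0.0572), Parp9 (0.0893), Psmb8 (0.0651) and Zbp1 (0.0656) no longer passed in shRNA cells, where Ifih1 came to pass at -0.41 (adjusted p = 0.0208). In control cells Stat2 (adjusted p = 0.105), Adar (0.485) and Psmb8 (0.116) no longer passed, and the change of Adar was 0.10. Adar in control cells failed in 14 of 24 alternatives and Nmi in shRNA cells in 10 of 24. Each of these counts includes the fit within a slide.

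Upstream of the members, the other genes of the interferon system were read from a list of 157 genes, of which 141 had a probe and 115 were tested. In shRNA cells 45 rose and 23 fell, and in control cells 42 rose and 22 fell. The median log2 change was 0.14 in shRNA cells and 0.15 in control cells, against -0.08 in shRNA cells and -0.07 in control cells over all genes. The shares of all genes that passed, against which this count and those of the roles are to be read, were 38.3% in shRNA cells and 40.5% in control cells. Of the 15 ligands with a probe, 8 were well above background on no array, among them Ifnb1, Ifng, Ifna2 and Ifna4. Ifna13 and Ifnab, above background on all arrays, did not pass, with changes of 0.07 (SE 0.10, adjusted p = 0.59) and -0.24 (SE 0.17, adjusted p = 0.283) in shRNA cells and 0.01 (SE 0.10, adjusted p = 0.924) and -0.10 (SE 0.17, adjusted p = 0.662) in control cells. Ifna genes are near-identical copies, so a probe's signal cannot be assigned to 1 of them with certainty. Ifna1 was above background on 4 arrays and Ifnl3 on 1. The cytokine Il18, which induces interferon gamma in lymphocytes, rose 51.1-fold in shRNA cells, a log2 change of 5.67 (SE 0.06, adjusted p = 3.27e-12), and 61.4-fold in control cells, a log2 change of 5.94 (SE 0.06, adjusted p = 2.06e-12). Il15, a growth factor of NK cells, rose by 1.11 (SE 0.17, adjusted p = 0.000477) in shRNA cells and 1.11 (SE 0.17, adjusted p = 0.000429) in control cells, and Il12a, a subunit of interleukin 12, fell, with changes of -0.77 (SE 0.08, adjusted p = 2.72e-05) in shRNA cells and -0.94 (SE 0.08, adjusted p = 5.39e-06) in control cells.

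Both type I subunits rose, Ifnar1 by 1.07 (SE 0.10, adjusted p = 1.34e-05) in shRNA cells and 1.26 (SE 0.10, adjusted p = 3.61e-06) in control cells, and Ifnar2 by 0.99 (SE 0.06, adjusted p = 6.76e-07) in shRNA cells and 1.001 (SE 0.06, adjusted p = 5.18e-07) in control cells. Of the type II receptor, Ifngr2 rose by 1.81 (SE 0.08, adjusted p = 5.27e-08) in shRNA cells and 1.81 (SE 0.08, adjusted p = 4.09e-08) in control cells, whereas Ifngr1 did not pass, at -0.38 (SE 0.19, adjusted p = 0.142) in shRNA cells and -0.21 (SE 0.19, adjusted p = 0.429) in control cells, with a saturated spot in every group. The type III receptor's own chain Ifnlr1 fell, with changes of -1.62 (SE 0.06, adjusted p = 7.06e-09) in shRNA cells and -1.93 (SE 0.06, adjusted p = 1.88e-09) in control cells. Il10rb, the chain it shares with the interleukin 10 receptor, was under background before 4-OHT and rose at least 1.52-fold in shRNA cells and at least 1.73-fold in control cells (adjusted p of the fit 0.0004 in shRNA cells and 0.000145 in control cells). Its probe met the dim-probe filter only through the arrays after 4-OHT, so these p-values are no separate support for the rise.

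Of the 10 kinases and signal carriers, 4 rose in each vector and none fell. Jak2 rose by 1.72 (SE 0.07, adjusted p = 3.57e-08) in shRNA cells and 1.76 (SE 0.07, adjusted p = 2.24e-08) in control cells. Irf9, the DNA-binding partner of Stat2, rose by 1.09 (SE 0.07, adjusted p = 1.16e-06) in shRNA cells and 1.30 (SE 0.07, adjusted p = 2.39e-07) in control cells. Irf7, which drives interferon alpha genes, rose by 1.29 (SE 0.22, adjusted p = 0.000984) in shRNA cells and 1.60 (SE 0.22, adjusted p = 0.000202) in control cells, and Irf8, the PU.1 partner, by 1.55 (SE 0.08, adjusted p = 1.75e-07) in shRNA cells and 1.23 (SE 0.08, adjusted p = 8.06e-07) in control cells. Of those that did not pass in either vector, Irf1 stood at -0.18 (SE 0.08, adjusted p = 0.11) in shRNA cells and -0.07 (SE 0.08, adjusted p = 0.574) in control cells, and Irf2 at -0.10 (SE 0.11, adjusted p = 0.513) in shRNA cells and -0.06 (SE 0.11, adjusted p = 0.717) in control cells. Jak1 stood at 0.13 (SE 0.08, adjusted p = 0.229) in shRNA cells and 0.11 (SE 0.08, adjusted p = 0.325) in control cells, Tyk2 at 0.31 (SE 0.14, adjusted p = 0.104) in shRNA cells and 0.16 (SE 0.14, adjusted p = 0.402) in control cells, and Stat3 at -0.25 (SE 0.11, adjusted p = 0.105) in shRNA cells and -0.03 (SE 0.11, adjusted p = 0.871) in control cells.

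The list's 13 tested inducers and sensors held 5 that rose and 3 that fell in shRNA cells, and 4 of each in control cells. Tlr8, an endosomal RNA receptor, was under background before 4-OHT and rose at least 6.24-fold in shRNA cells and at least 5.41-fold in control cells (adjusted p of the fit 2.03e-05 in shRNA cells and 1.11e-05 in control cells). Ikbke, a kinase that activates Irf3 and Irf7, fell, with changes of -1.68 (SE 0.13, adjusted p = 3.26e-06) in shRNA cells and -2.09 (SE 0.13, adjusted p = 5.03e-07) in control cells. Among 55 tested genes known to be induced by interferon and not on the main list, 24 rose and 9 fell in shRNA cells, and 23 rose and 8 fell in control cells. The largest rises were in the DNA sensor family, with Ifi204 up by 3.17 (SE 0.11, adjusted p = 6.77e-09) in shRNA cells and 3.78 (SE 0.11, adjusted p = 1.75e-09) in control cells, and Ifi205, under background before 4-OHT, up at least 10.4-fold in shRNA cells and at least 14.7-fold in control cells (adjusted p of the fit 2.3e-09 in shRNA cells and 6.09e-10 in control cells). The schlafen gene Slfn2 rose by 3.04 (SE 0.13, adjusted p = 3.36e-07) in shRNA cells and 3.19 (SE 0.13, adjusted p = 2.06e-07) in control cells, and Ifi27l2a, also under background before 4-OHT, at least 4.61-fold in shRNA cells and at least 4.97-fold in control cells (adjusted p of the fit 0.000316 in shRNA cells and 0.000214 in control cells). Lgals9, which encodes galectin-9, fell, with changes of -1.56 (SE 0.11, adjusted p = 1.29e-06) in shRNA cells and -1.81 (SE 0.11, adjusted p = 3.42e-07) in control cells, and so did Rnf213, a large ubiquitin ligase, with changes of -0.88 (SE 0.09, adjusted p = 1.54e-05) in shRNA cells and -1.003 (SE 0.09, adjusted p = 5.06e-06) in control cells. Members of the Ifi200 family are paralogs with shared sequence, so the split between them is uncertain. Tlr8, Ifi205 and Ifi27l2a met the dim-probe filter only through the arrays after 4-OHT, so their p-values are no separate support for these rises.

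Of the 14 negative regulators, 5 rose and 6 fell in shRNA cells, and 4 rose and 6 fell in control cells. In each vector 1 of the rises, that of Ptpn6, was at least 2-fold. Ptpn6 read 3.93, 3.96 and 4.09 in shRNA cells after 4-OHT and 2.40, 2.35 and 2.33 before it. In control cells it read 4.12, 3.93 and 3.92 after 4-OHT and 2.49, 2.34 and 2.47 before it. Ptpn2, a phosphatase of Jak1, fell, with changes of -0.95 (SE 0.11, adjusted p = 7.22e-05) in shRNA cells and -1.08 (SE 0.11, adjusted p = 2.63e-05) in control cells. Rnf125, a ligase that marks RIG-I for degradation, fell as well, with changes of -0.86 (SE 0.09, adjusted p = 2.79e-05) in shRNA cells and -1.03 (SE 0.09, adjusted p = 6.52e-06) in control cells, and the cytokine brake Socs3 changed by -1.09 (SE 0.07, adjusted p = 4.58e-07) in shRNA cells and -0.85 (SE 0.07, adjusted p = 2.39e-06) in control cells. Of 11 other genes of antigen presentation, 1 rose and 3 fell in shRNA cells, and 1 rose and 2 fell in control cells.

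**Figure D4:**
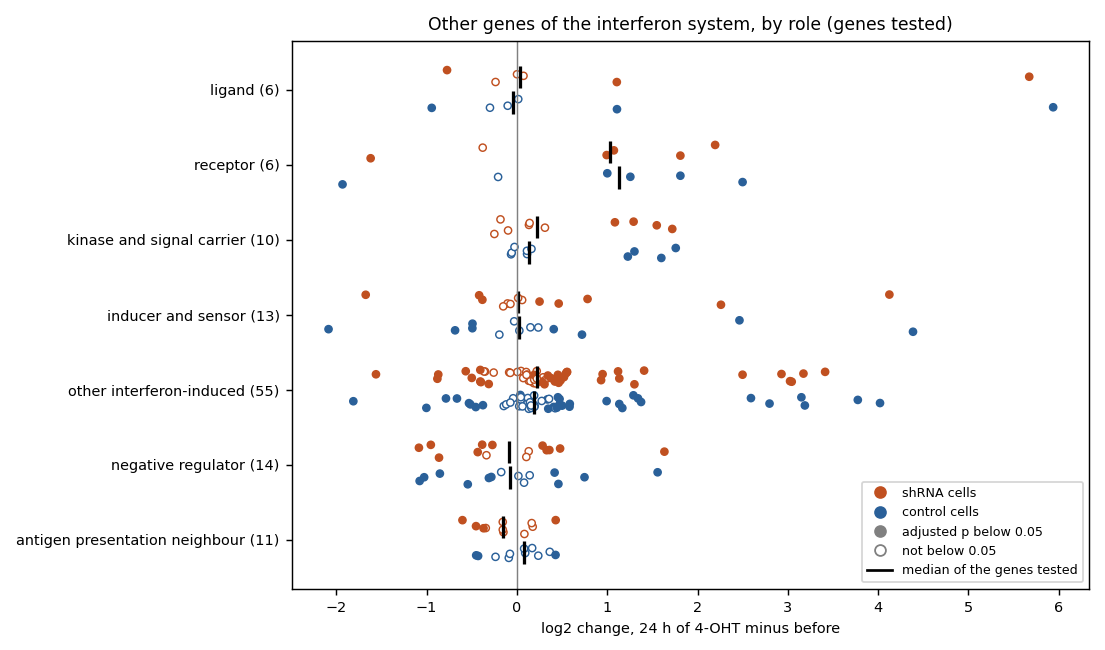
Log2 change with 4-OHT (horizontal axis) of 115 other genes of the interferon system by role, in shRNA cells (orange, upper row) and control cells (blue, lower row), with the number of genes tested in brackets. Filled points passed an adjusted p of 0.05 and black ticks are medians. The receptors have the highest medians, 1.03 in shRNA cells and 1.13 in control cells, and Il18 lies farthest to the right.

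Markers of cell types were read on the same arrays. Of 10 myeloid markers 8 were well above background on all 12 arrays, whereas 5 of 6 markers each of NK cells and epithelium were so on none. Plasmacytoid dendritic cells are a main source of type I interferon. Of 6 of their markers 3 were above background on all arrays, and the defining Siglech was so on 1 array. Their summed level (log2 of the summed scaled intensity) lay between 1.83 and 1.86 in shRNA cells after 4-OHT and between 2.55 and 2.62 before it, and between 1.93 and 2.03 in control cells after 4-OHT and between 2.40 and 2.97 before it. It was thus lower after 4-OHT in both vectors. The summed level of erythroid markers, 3 of 5 of which were above background on no array, was lower as well, at -2.86 to -2.59 in shRNA cells after 4-OHT and -2.19 to -1.96 before it, and at -2.84 to -2.50 in control cells after 4-OHT and -2.11 to -1.75 before it. So was that of the T cell markers, of which 2 of 5 (Cd3e and Cd4) were above background on all arrays and 2 (Cd3g and Cd8a) on none, at -2.41 to -2.11 in shRNA cells after 4-OHT and -1.81 to -1.65 before it, and at -2.29 to -2.16 in control cells after 4-OHT and -1.97 to -1.85 before it. The part of these shifts in the changes above was not tested.

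The comparison of the vectors asks whether the Hnrnpa0 shRNA alters these genes. It uses the same arrays as the 4-OHT comparisons. The summed level of 6 fibroblast or stroma markers, of which 1 (Col1a2) was above background on all arrays and 3 (Dcn, Pdgfra and Thy1) on none, did not overlap between the vectors at either time. It lay at -1.98 to -1.44 in shRNA cells against -2.46 to -2.33 in control cells after 4-OHT, and at -2.12 to -1.45 in shRNA cells against -2.76 to -2.32 in control cells before it. Its part in the differences was not tested. Before 4-OHT none of the 27 genes passed the limma test between shRNA and control cells, where 0.378% of all genes did, and 4 had an unadjusted p under 0.05. With array weights in limma 4 passed, 3 higher and 1 lower, but the share of all genes in that fit was not set beside this count. The smallest adjusted p was that of Tap1, at 0.35 (SE 0.12, adjusted p = 0.131). The median log2 difference was 0.06, against -0.03 over all genes. For 6 of 27 genes the vectors' values did not overlap, against 32.5% of all genes.

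After 4-OHT 3 of the 27 genes passed between shRNA and control cells, 1 higher and 2 lower, where 16.6% of all genes did, 7.83% higher and 8.8% lower. Ifit2 was higher in shRNA cells, at 0.41, 0.41 and 0.21 against 0.03, -0.02 and -0.02 in control cells, a difference of 0.35 (SE 0.07, adjusted p = 0.0174). Bst2 was lower, at 3.61, 3.501 and 3.49 in shRNA cells against 4.08, 3.77 and 3.76 in control cells, a difference of -0.34 (SE 0.09, adjusted p = 0.0315). Parp14 was lower too, at 1.22, 1.10 and 1.23 in shRNA cells against 1.38, 1.38 and 1.48 in control cells, a difference of -0.23 (SE 0.07, adjusted p = 0.0424). On the brightest probe none of these 3 overlapped between the vectors, as was so for 13 of the 27 genes and 38.6% of all genes. Another Ifit2 probe did overlap, at -1.595, -1.48 and -1.93 in shRNA cells against -1.92, -1.94 and -1.78 in control cells. So did another Parp14 probe, at -3.48, -3.60 and -3.38 in shRNA cells against -3.45, -2.67 and -2.51 in control cells. Both were above background on all 12 arrays. Of the table-named genes Herc6 passed, by 0.38 (SE 0.08, adjusted p = 0.0213) on its brightest probe. Another Herc6 probe above background on all 12 arrays overlapped, at -3.20, -2.81 and -3.00 in shRNA cells against -2.85, -3.415 and -3.25 in control cells. The median difference was -0.03, against -0.04 over all genes.

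At neither time did a slide hold arrays of both vectors. In the fit with a fixed term for slide, the differences were 0.27 for Ifit2 (adjusted p = 0.814), -0.22 for Bst2 (adjusted p = 0.814) and -0.35 for Parp14 (adjusted p = 0.623), and none of the 27 genes passed. Without control replicate B or shRNA replicate B after 4-OHT none passed either, and without control replicate A or shRNA replicate C 1 did. The shares of all genes in these fits were not set beside these counts.

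**Figure D5:**
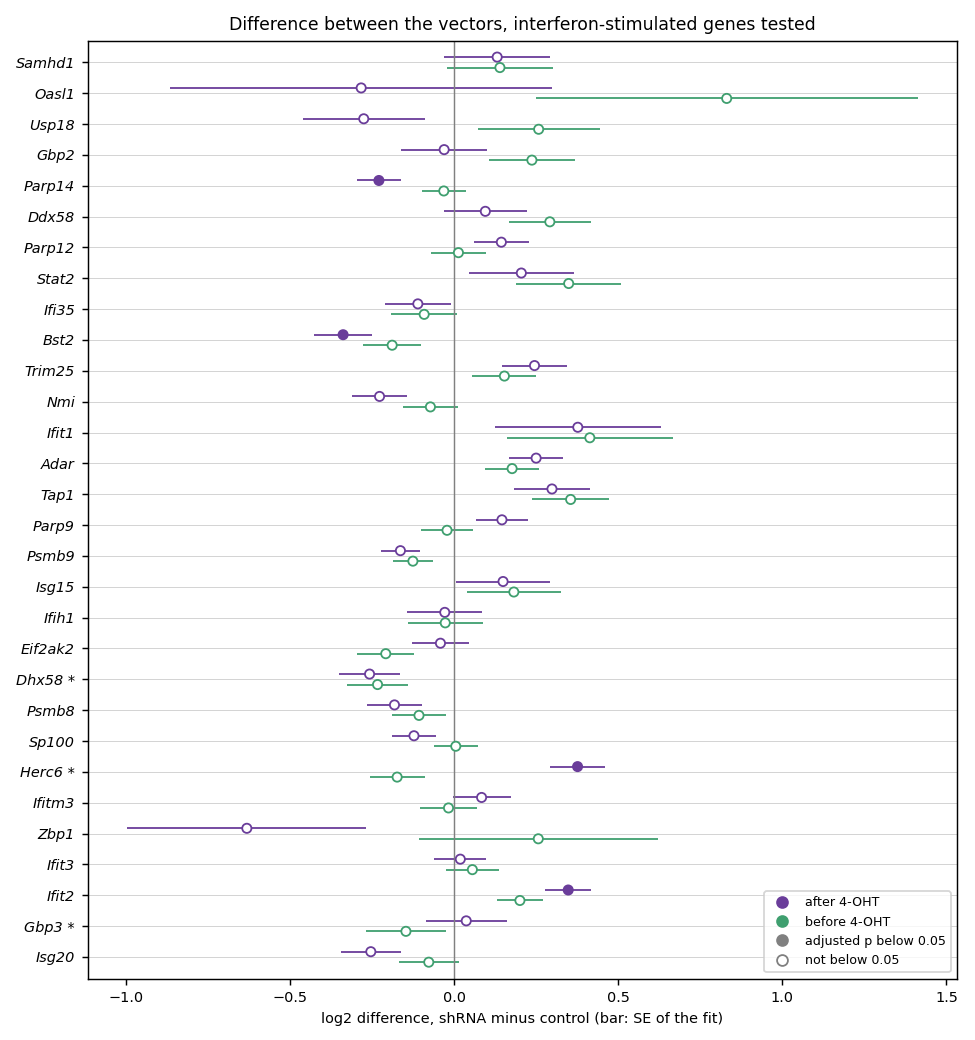
Log2 difference between the vectors (horizontal axis, shRNA minus control) of the 30 listed genes tested, after 4-OHT (purple) and before it (green), in the order of the 4-OHT change in control cells, with the SE of the fit as bars. Filled points passed an adjusted p of 0.05, and an asterisk marks genes named through the reference tables. Filled points are Ifit2 (0.35), Herc6 (0.38), Parp14 (-0.23) and Bst2 (-0.34), all after 4-OHT.

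The response to 4-OHT did not differ between the vectors for any member past the threshold. In the limma test of that difference 0 of the 27 genes passed and 0 had an unadjusted p under 0.05, and of all genes 0 passed and 791 had an unadjusted p under 0.05. With array weights in limma, 0 of the 27 and 20 of all genes passed. The difference in response was -0.53 (SE 0.26, adjusted p = 0.951) for Usp18, -0.27 (SE 0.18, adjusted p = 0.957) for Gbp2, -0.20 (SE 0.09, adjusted p = 0.943) for Parp14 and -0.01 (SE 0.23, adjusted p = 0.998) for Samhd1. For Parp9 it was 0.17 (SE 0.11, adjusted p = 0.957) and for Zbp1 -0.89 (SE 0.52, adjusted p = 0.957). The table-named Herc6 had the largest shift relative to its error, at 0.55 (SE 0.12, adjusted p = 0.495) on its brightest probe. Its other probe above background on all arrays moved the opposite way with 4-OHT in both vectors, so the sign of this shift depends on the probe. Differences within these errors were not detectable with 3 arrays in a group, which does not show that the vectors act alike.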

How the data were processed

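RNA of 12 PUER cultures was hybridised to 1-colour Agilent mouse arrays with 1 array per culture, and each spot was read as an intensity. Per the file headers, the deposited intensity values are the processed signals of Agilent Feature Extraction 9.5 (per the submitters' processing notes), with background subtracted by the scanner software and no normalization between arrays; probe coordinates are on mm7. Here control spots and spots called outliers (357 to 1165 on an array) were dropped, repeated spots were averaged per probe, and the log2 intensity was taken relative to the array's 75th percentile. A gene was represented by its brightest probe among those well above background on at least 3 of 12 arrays. Probe names were updated through transcript accessions (22951 probes), symbols (6659) and older symbols (3109) of the RefSeq gene table, and the other 8455 kept the file's name. Listed genes were found by the file's own gene name, and those reached only through the table are named as such.

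Groups came from the sample titles. limma 3.58.1 in R 4.3.3 was fitted with 4 group means on all 12 arrays, and p-values were adjusted by Benjamini-Hochberg over 15076 genes with a threshold of 0.05. The fit was tested on simulated data. Promoters were searched in Python 3.11.15. The members, the other lists and the tests were chosen with earlier results of these data known. Values on every array are given for the 6 members of largest change in each direction, and of the other interferon genes those named are the 6 largest changes in each direction, every receptor and signal carrier, and ligands above background. Ptpn6 was added because the other negative regulators named all fell. In an at least N-fold bound, a dim array is set at the higher of its own signal and the lowest signal of a probe well above background. Alternatives covered background correction, normalization, the dim-probe filter, probe averaging, the deposited summary table of the same intensity values, slide as a block or within slides, replicate letters, array weights and leaving out each array. Depth is not defined for arrays, and 3 arrays per group limit the precision. Some items of the interferon system are not reported here.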

Additional observations from a re-analysis of the deposited data

How the results depend on the processing

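Over the 24 alternatives run for each 4-OHT comparison, Samhd1, Usp18, Gbp2, Parp14, Isg20, Ifit2 and Ifit3 stayed past the threshold in control cells in the same direction. Among the 24 is the fit within a slide, where a call rests on 1 array in an arm. Of the values of single genes over all alternatives, fits within a slide included, 938 kept direction and call and 90 lost the call. In 1 case the direction turned: Sp100 in control cells, at 0.0195 with the mean of all probes. The calls between the vectors after 4-OHT held less often. Bst2 kept its call in 14 of 23 alternatives, Ifit2 in 14 of 23 and Parp14 in 6 of 23. The 4-OHT counts moved by over 1.5 times only within slide 3, with 11 genes passing in shRNA cells against 21, and leaving out 1 array gave 18 to 21 in shRNA cells and 18 to 20 in control cells. The count between the vectors after 4-OHT, 3 as reported, was 1 with normexp background correction, 1 with the mean of all probes, 0 without the dim-probe filter, 0 with slide as a fixed block, 0 with slide as a random block, and 9 with array weights. It was 0 with the percentile taken over probes, chosen after seeing the data, where 864 of all genes passed against 2507. Leaving out 1 array gave 0 to 4. Before 4-OHT it was 4 with array weights against 0. Save for the percentile over probes, the counts of all genes in these fits, also for 4-OHT, were not set beside those of the members. These counts, 9 and 4 with array weights among them, therefore do not single out the members. Why these counts moved was not tested. Of 18 same-letter pairs of arrays 5 correlated above 0.1 (range -0.0878 to 0.3039), against 5 of 36 different-letter pairs (range -0.3251 to 0.1734). The reported fit did not pair the arrays by letter, and a weak pairing was not tested. With a replicate block 21 genes passed in shRNA cells and 18 in control cells with 4-OHT, and 0 before and 3 after 4-OHT between the vectors. The counts of all genes in that fit were not set beside these either. Genes near background (8 of 35 not tested) have no direction at this signal.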
